A study of Homo sapiens with 12 samples.

Results

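DNA replication genes are the 50 genes on a named list of replication and replication checkpoint factors, found by symbol among the 58288 Ensembl genes of the tables deposited for 2 human T-cell acute lymphoblastic leukemia (T-ALL) lines, HPB-ALL and KOPTK1. All 50 were found, each in 1 row, and all 50 passed the filter on low counts. RNA sequencing was done on rRNA-depleted total RNA from 12 samples. In each line 3 samples were transduced with a pLKO.1 lentivirus carrying shRNA against SHQ1 (shSHQ1) and 3 with the same vector carrying an shRNA against GFP (shGFP), and all 12 were cultured with puromycin, so no sample was free of virus or drug. SHQ1 is an assembly factor for H/ACA small nucleolar ribonucleoproteins, which guide pseudouridylation of RNA. Both are established lines, each 1 leukemia, so a difference between them is one between 2 cultures and not between classes of patient.

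The library columns of the tables carry bare numbers as headers, 7 to 12 for HPB-ALL and 1 to 6 for KOPTK1, and these match no sample name and no shRNA. Libraries could be placed by line only, through the sample descriptions, and the effect of SHQ1 shRNA was not analysed here. The comparison that could be made is KOPTK1 against HPB-ALL, 6 libraries each, with both shRNA groups in each line. Levels are given as RPKM, reads per kilobase of exon scaled to library size, computed from the deposited counts with TMM-scaled library sizes. Differences are log2 values of KOPTK1 minus HPB-ALL from edgeR's quasi-likelihood test, and a gene was called at an adjusted p under 0.05 over all 27834 genes tested. No label says that the samples of a group came from separate cultures, so p-values measure the spread between these libraries.

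Replication begins when the origin recognition complex, CDC6 and CDT1 load the MCM helicase onto DNA, and CDC7 with its partner DBF4, CDC45 and the GINS complex turn it on. Replication factor C then loads the PCNA clamp for the polymerases, and RPA coats the exposed single strand. When forks stall, ATR with ATRIP, helped by TOPBP1, CLSPN, TIMELESS and TIPIN, activates the kinase CHEK1, which restrains CDC25A and further origin firing. T-ALL cells divide fast and depend on this machinery. Many of its genes are known targets of the E2F factors, which act at S-phase entry.

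The promoters are shown because E2F-type letters near the start are a feature that many of these genes share. Windows from 250 bases before to 50 after the start were taken from RefSeq (GRCh38.p14), and 44 of the 50 genes had 1 or more. The letters TTTCGCGC, TTTGGCGC, TTTCCCGC or TTTGCCGC, on either strand and with overlapping matches allowed, were found for 21 of these 44 genes (47.7%), against 1090 of all 27305 genes with a window (3.99%). Over single windows the shares were 37.5% of 56 and 3.31% of 35116. The shorter word CCAAT, on either strand, was in 64.3% of the windows of replication genes and 34.6% of all windows. The median GC content was 64.0% and 58.7%, and its part in these shares was not tested. In the helicase group 7 of 13 windows held an E2F-type match, and MCM6 had 4 matches in 1 window, some of them overlapping. The windows of 5 genes, chosen after their values were seen, are printed below with these letters in capitals, each on the gene's own strand: PCNA (chr20:5126573-5126872, minus strand), the highest of the 50 genes, MCM3 (chr6:52284693-52284992, minus strand), a helicase subunit that was lower in KOPTK1, POLA1 (chrX:24693668-24693967, plus strand) and POLA2 (chr11:65261712-65262011, plus strand), 2 subunits of one polymerase that differed in opposite directions, and CHEK1 (chr11:125625979-125626278, plus strand), which held none of the 4 words in any of its 3 windows.
PCNA: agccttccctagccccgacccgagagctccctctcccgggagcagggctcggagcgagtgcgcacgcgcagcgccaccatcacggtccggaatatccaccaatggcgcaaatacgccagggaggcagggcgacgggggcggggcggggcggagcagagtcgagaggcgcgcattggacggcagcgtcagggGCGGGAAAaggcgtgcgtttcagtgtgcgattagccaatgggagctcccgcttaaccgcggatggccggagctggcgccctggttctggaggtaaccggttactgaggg
MCM3: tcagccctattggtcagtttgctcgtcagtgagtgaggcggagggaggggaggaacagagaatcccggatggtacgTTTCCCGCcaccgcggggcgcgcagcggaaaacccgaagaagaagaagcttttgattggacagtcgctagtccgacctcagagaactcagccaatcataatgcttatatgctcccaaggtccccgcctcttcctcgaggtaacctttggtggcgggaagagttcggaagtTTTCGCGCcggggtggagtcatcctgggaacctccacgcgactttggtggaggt
POLA1: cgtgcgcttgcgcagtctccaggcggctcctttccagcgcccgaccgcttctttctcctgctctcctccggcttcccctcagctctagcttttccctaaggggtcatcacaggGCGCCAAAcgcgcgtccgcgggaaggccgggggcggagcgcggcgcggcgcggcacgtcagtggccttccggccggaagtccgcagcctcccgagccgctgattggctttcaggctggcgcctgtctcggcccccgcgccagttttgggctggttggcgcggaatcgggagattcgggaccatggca
POLA2: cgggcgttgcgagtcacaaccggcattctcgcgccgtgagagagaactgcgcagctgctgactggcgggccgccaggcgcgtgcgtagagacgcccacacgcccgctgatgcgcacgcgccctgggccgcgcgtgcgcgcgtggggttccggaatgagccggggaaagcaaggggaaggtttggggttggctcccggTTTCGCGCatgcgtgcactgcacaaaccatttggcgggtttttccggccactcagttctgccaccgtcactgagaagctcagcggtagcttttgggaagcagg
CHEK1: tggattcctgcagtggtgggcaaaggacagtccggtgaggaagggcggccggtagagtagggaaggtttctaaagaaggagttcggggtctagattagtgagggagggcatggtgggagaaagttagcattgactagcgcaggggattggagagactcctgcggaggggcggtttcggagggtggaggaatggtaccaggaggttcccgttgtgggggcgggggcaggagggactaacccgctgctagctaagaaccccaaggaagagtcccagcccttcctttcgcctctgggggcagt
The PCNA match began 59 bases before the start. MCM3 had matches at 174 and 4 bases before the start, POLA1 at 137 and POLA2 at 53. Whether such matches go with the differences between the lines was not tested. A match of letters is a description and not a binding site.

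SHQ1, the target of the shRNA, stood at 71.3, 72.3 and 71.1 RPKM in the HPB-ALL libraries headed 7 to 9 and at 47.4, 46.1 and 48.8 in those headed 10 to 12. In KOPTK1 it stood at 45.7, 44.3 and 46.01 in headers 1 to 3 and at 41.9, 41.9 and 39.6 in headers 4 to 6. The headers give no shRNA, so these values assign none. Total counts per library were 36792076 to 42842791 in HPB-ALL, 33905452 to 36098045 in KOPTK1 headers 1 to 3 and 22884785 to 25938761 in headers 4 to 6. Mitochondrial genes took 1.26% to 1.44%, 1.74% to 1.91% and 2.25% to 2.37% of these counts, and the part of this in the results was not tested. The lowest count of a replication gene in a library was 234.8 (ATRIP).

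The KOPTK1 libraries headed 1, 2 and 3 stood apart from those headed 4, 5 and 6. Over 19634 expressed genes, Spearman's rho with the HPB-ALL libraries was 0.924 to 0.938 for headers 1 to 3 and 0.842 to 0.857 for headers 4 to 6, against 0.982 to 0.987 within HPB-ALL. Of all genes, 66 were under 0.5 RPKM in every HPB-ALL library and over 5 RPKM in every one of headers 4 to 6, a choice that did not use headers 1 to 3. Their median level in headers 1, 2 and 3 was 56.4%, 57.1% and 57.6% of the mean of headers 4 to 6, with quartiles between 52.9% and 62.6%. The same 66 genes stood at medians of 2.47% to 2.88% in HPB-ALL headers 10 to 12 and of 0.321% to 0.400% in headers 7 to 9. These thresholds were set after the data were seen, since limits of 0.05 and 2 RPKM, tried first, left 2 genes, whose median levels in headers 1, 2 and 3 were 62.2%, 40.9% and 49.6%. In the other direction 0 genes were under 0.5 RPKM in headers 4 to 6 and over 5 RPKM in every HPB-ALL library. Over all genes tested, the log2 differences between the lines ran from -2.91 to 8.53. Whether any library, those headed 4 to 6 included, holds RNA of both lines was not tested. The differences of called replication genes below are therefore also given without headers 1 to 3, an alternative chosen after these values were seen, and headers 1 to 3 and 4 to 6 were not compared as groups. The fit over all 12 libraries had no term for this split, so its standard errors, intervals and adjusted p-values carry it. For RPA3 the standard error was 0.12 in that fit and 0.05 without headers 1 to 3, and for CHEK1 it was 0.030 and 0.034.

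The T-cell markers fixed for the check were measured in both lines. Of the 10, 4 were higher in KOPTK1, 4 were lower and 2 were not called, and they summed to 1018 to 1116 RPKM, most of it CD3D, CD3E and LCK. CD3D stood at 280.7 to 319.8 RPKM over the 12 libraries and LCK at 173.8 to 233.8. CD2 was higher, at a mean of 48.2 RPKM in KOPTK1 against 13.7 in HPB-ALL, and so were RAG1 (9.60 against 2.13) and PTCRA (4.262 against 2.502), whereas ZAP70 was lower (83.4 against 150.9). Of the 10 markers of other cell types, 9 reached 1.68 RPKM at most. The exception was CD79A, a B-cell receptor component that some T-ALL express, at 40.0 to 46.6 RPKM in HPB-ALL, 24.0 to 24.7 in headers 1 to 3 and 5.92 to 7.18 in headers 4 to 6. Of 5 oncogenic transcription factors of T-ALL, listed as markers of the lines, TAL1 was at 39.3 to 45.5 RPKM in HPB-ALL and 12.5 to 26.5 in KOPTK1. LMO2 was at 0.0781 to 0.262 RPKM in HPB-ALL and 0.966 to 2.52 in KOPTK1. TLX3, TLX1 and NKX2-5 reached at most 0.294 RPKM. The identity of the lines rests on the sample descriptions, and whether these levels are those known for each line was not tested. The part of the marker differences in the results below was not tested.

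The replication genes were among the more abundant transcripts of both lines. Their mean levels over the 12 libraries ran from 4.54 RPKM (ATRIP) to 209.5 RPKM (PCNA), with a median of 38.7 RPKM against 4.43 RPKM over all genes tested. The median gene of the 50 stood at the 93.8th percentile of the genes tested, and 47 of the 50 were over 10 RPKM in every library. The exceptions were ATRIP, CHEK2 and RPA3, the 3 genes that were lowest in KOPTK1 relative to HPB-ALL. PCNA, MCM3, MCM7 and MCM4 held the first 4 places in both lines. In HPB-ALL MCM3 (156.1 RPKM) and PCNA (153.6 RPKM) overlapped in their libraries. In KOPTK1 PCNA came first at 265.4 ± 34.3 RPKM (SD, n = 6), followed by MCM7 at 154.9 ± 8.73 and MCM4 at 131.9 ± 10.1. Summed over the 50 genes, the level was 2248 to 2330 RPKM in HPB-ALL and 2305 to 2327 in KOPTK1, so the sums overlapped.

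**Figure D1:**
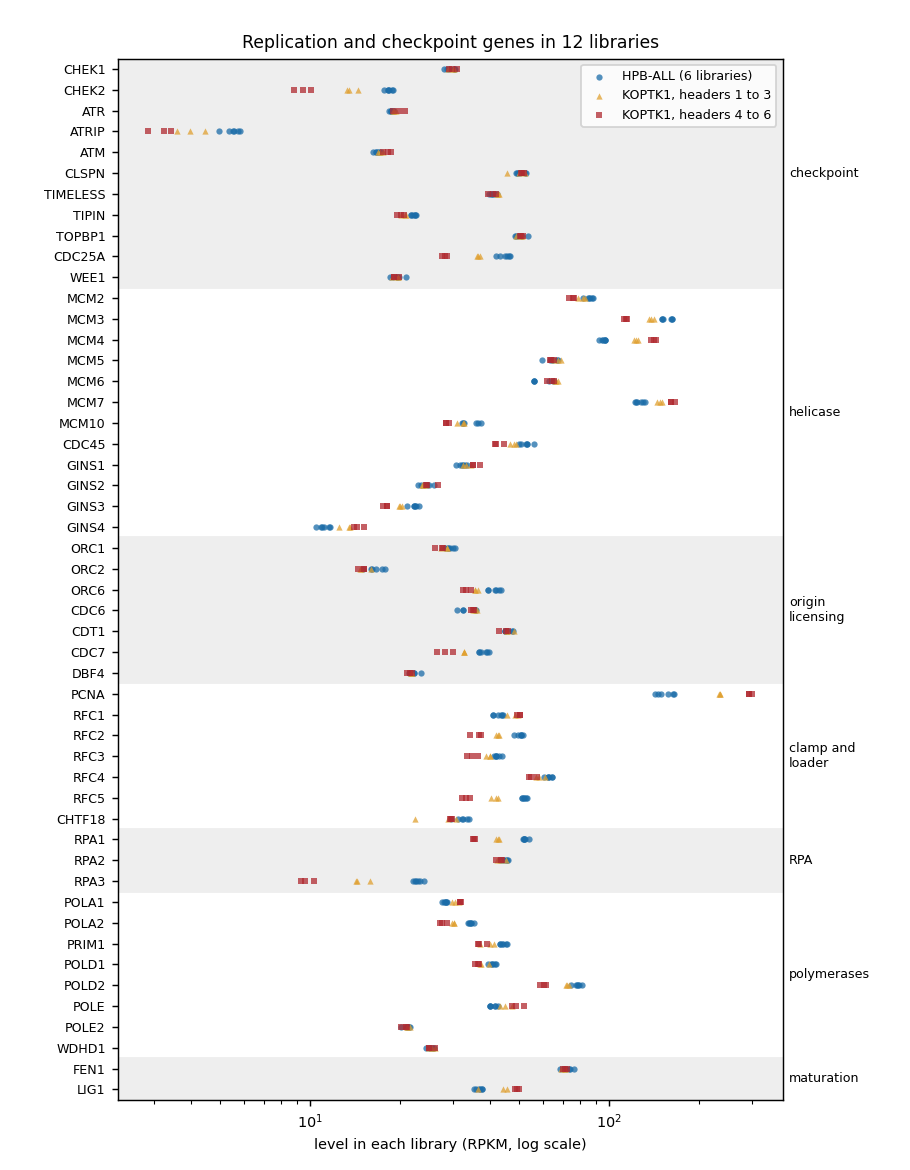
Level of each of the 50 genes (rows, grouped by role) in each of the 12 libraries, in RPKM on a log scale. Circles are HPB-ALL, triangles KOPTK1 headers 1 to 3 and squares KOPTK1 headers 4 to 6; for RPA3, CHEK2, PCNA and MCM4 the triangles lie between the other symbols.

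KOPTK1 and HPB-ALL differed in 35 of the 50 genes, beside 63.8% of all genes tested. In KOPTK1 11 were higher (22.0%), against 33.2% of all genes tested, and 24 were lower (48.0%), against 30.6%. Without headers 1 to 3 the counts were 10 higher and 24 lower, beside 34.2% and 33.8% of all genes, and 34 genes were called the same way in both fits. The median absolute difference of the 50 genes was 0.16 on the log2 scale, against 0.35 over all genes tested, and 46 of the 50 lay within 0.5 of 0, as did 63.4% of all genes. At a minimum of 1.5-fold, 1 gene was higher, beside 17.6% of all genes, and 3 were lower, beside 11.5%. The libraries of the lines did not overlap for 7 higher genes (22.6% of all genes) and for 17 lower genes (21.1%). The median difference was -0.04 among the 50 genes and 0.03 over all genes tested. These genes are counted more deeply than most, and the part of depth in the shares was not tested.

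**Figure D2:**
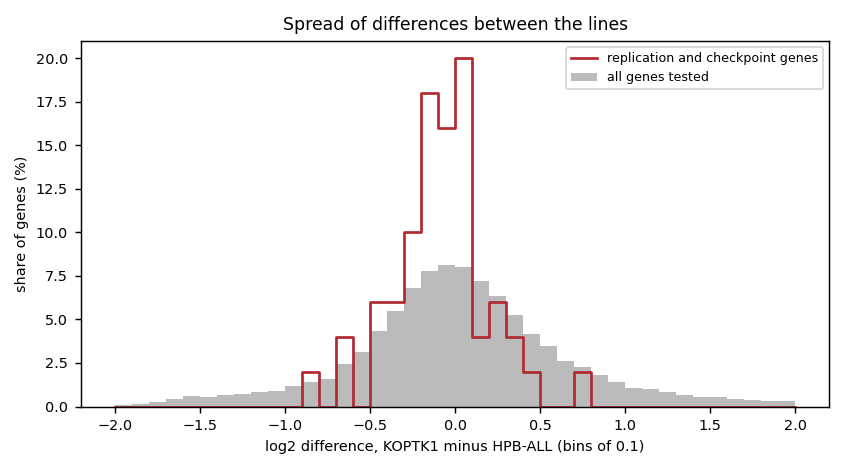
Share of genes (percent) in each bin of 0.1 of the log2 difference, KOPTK1 minus HPB-ALL, for all 27834 genes tested (bars) and for the 50 replication genes (line). The axis ends at 2 on either side, which leaves out 4.01% of all genes; the replication genes run from -0.89 to 0.79.

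CHEK1, the checkpoint kinase and a gene whose splicing the study examined, was not called different between the lines in gene counts. Its level was 28.0 to 30.5 RPKM in HPB-ALL with a median of 29.6, and 28.9 to 30.9 RPKM in KOPTK1 with a median of 29.9. The KOPTK1 values were 30.2, 28.9 and 30.1 in headers 1 to 3 and 29.1, 29.7 and 30.9 in headers 4 to 6. The ranges of the lines overlapped. The gene (ENSG00000149554.12, chr11:125625136-125676255, GRCh38, plus strand) differed by 0.02 on the log2 scale, with a 95% interval of -0.05 to 0.08 and an adjusted p of 0.61 in edgeR. Without headers 1 to 3 the interval was -0.07 to 0.07. Counts over whole genes do not show how a transcript is spliced. The study chose CHEK1 among its candidates from RNA sequencing of both lines on SHQ1 depletion. It reported higher intron retention of CHEK1 in HPB-ALL and in primary T-ALL cells, and lower mature mRNA and protein in HPB-ALL. A comparison of SHQ1 shRNA with control could not be made here, as the headers give no shRNA.

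Counts by role below are of few genes, and they stand beside 33.2% of all genes tested called higher in KOPTK1 and 30.6% called lower. Among the 11 checkpoint genes, 4 were lower in KOPTK1, 1 was higher and 6 were not called, with the same counts without headers 1 to 3. CHEK2, the kinase that acts after double-strand breaks downstream of ATM, was the most different of them. It stood at 17.7 to 19.0 RPKM in HPB-ALL with a median of 18.3, at 13.3, 13.4 and 14.5 in KOPTK1 headers 1 to 3, and at 8.84, 10.1 and 9.49 in headers 4 to 6. The lines did not overlap. CHEK2 (ENSG00000183765.20, chr22:28687743-28741844, minus strand) was 1.58-fold lower in KOPTK1 (log2 -0.66 ± 0.11 SE, adjusted p = 1.2e-04 in edgeR) and differed by -0.98 ± 0.05 without headers 1 to 3. The table also holds rows for 7 pseudogenes named after CHEK2. The CHEK2 count was fractional in 0 libraries, so it shows no split of reads. Whether reads were placed in the wrong row was not tested.

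ATRIP, which brings ATR to RPA-coated DNA, was the least abundant of the 50 genes. Its level was 4.97 to 5.85 RPKM in HPB-ALL with a median of 5.55, 3.95, 4.44 and 3.58 in headers 1 to 3, and 2.88, 3.41 and 3.25 in headers 4 to 6, again without overlap. The difference was -0.61 ± 0.09 (SE, adjusted p = 4.8e-05 in edgeR), and -0.81 ± 0.07 without headers 1 to 3. ATRIP (ENSG00000164053.19, chr3:48446710-48465716, plus strand) shares 62.0% of its exon bases with another gene of the table on the same strand, ENSG00000282827.2, so its value is uncertain. ATR itself stood at 18.3 to 19.0 RPKM in HPB-ALL and 18.9 to 20.8 in KOPTK1 (log2 0.06, adjusted p = 0.076 in edgeR). The ratio of ATR to ATRIP within a library was 3.14 to 3.83 in HPB-ALL and 4.30 to 6.58 in KOPTK1, so the partners' ratios did not overlap.

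CDC25A, the phosphatase that activates CDK2 and is degraded on CHEK1 signalling, was lower in KOPTK1, at log2 -0.47 ± 0.08 (SE, adjusted p = 1.2e-04 in edgeR) and -0.69 ± 0.04 without headers 1 to 3. TIPIN, the fork protection partner of TIMELESS, was lower, at log2 -0.12 ± 0.03 (-0.16 without headers 1 to 3), and TIMELESS was not called (log2 0.02). ATM was called higher by 0.08 only (adjusted p = 0.034 in edgeR), and by 0.09 without headers 1 to 3. This call was lost with median-of-ratios scaling (adjusted p = 0.11), in DESeq2 (0.097) and in edgeR without headers 4 to 6 (0.32). TOPBP1, CLSPN and WEE1, the kinase that opposes CDC25A, had log2 differences between -0.014 and 0.0034, and the bounds of their 95% intervals ran from -0.09 to 0.07.

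**Figure D3:**
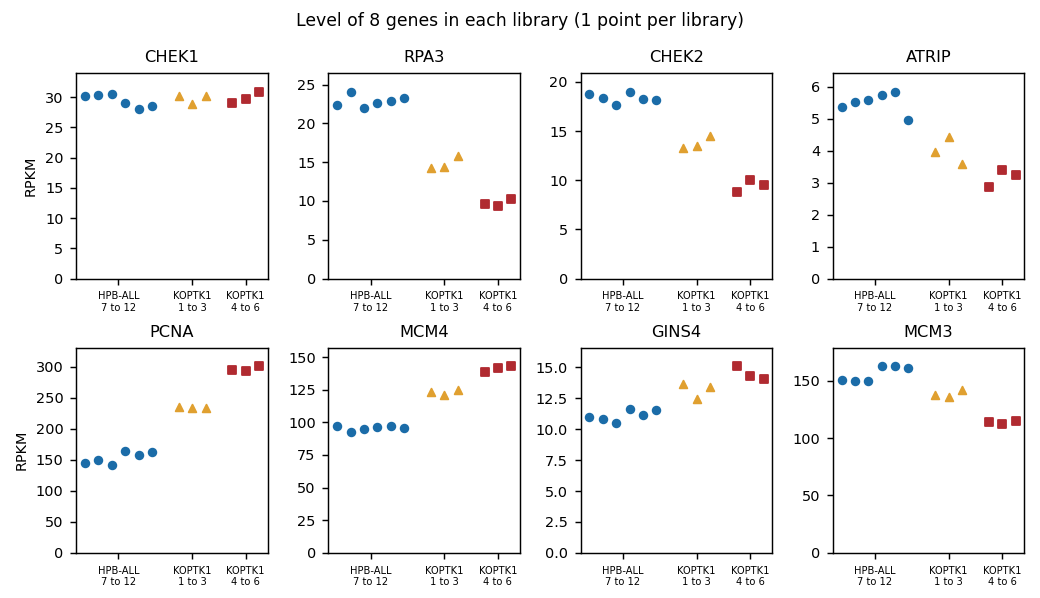
Level (RPKM, vertical axes from 0) of CHEK1, of the 3 genes lowest and the 3 genes highest in KOPTK1 relative to HPB-ALL, and of MCM3, with 1 point per library. Circles are HPB-ALL, triangles KOPTK1 headers 1 to 3 and squares headers 4 to 6; CHEK1 is level at 28.0 to 30.9 RPKM, and the other 7 genes show no overlap between the lines.

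The single-strand binding complex RPA, which is built from RPA1, RPA2 and RPA3 in equal parts, showed the largest difference of the 50 genes. RPA3, the smallest subunit, stood at 22.0 to 24.1 RPKM in HPB-ALL with a median of 22.8. It stood at 14.2, 14.4 and 15.8 RPKM in KOPTK1 headers 1 to 3 and at 9.64, 9.33 and 10.3 in headers 4 to 6. Every KOPTK1 library lay below every HPB-ALL library, and headers 4 to 6 lay below headers 1 to 3. RPA3 (ENSG00000106399.11, chr7:7636518-7718607, minus strand) differed by -0.89 ± 0.12 (SE, adjusted p = 2.2e-05 in edgeR), or 1.86-fold, and by -1.26 ± 0.05 without headers 1 to 3. Rows for 2 RPA3 pseudogenes were also present. RPA1, the large DNA-binding subunit, differed by -0.42 ± 0.05 (adjusted p = 1.5e-05 in edgeR) and by -0.58 ± 0.03 without headers 1 to 3. RPA2, the subunit phosphorylated in the checkpoint response, was not called (log2 -0.05, 95% interval -0.11 to 0.02). Within a library the ratio of RPA2 to RPA3 was 1.81 to 2.02 in HPB-ALL and 2.85 to 4.54 in KOPTK1, a difference that library scaling cannot move.

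The clamp and its loaders were called in all 7 cases, 2 higher and 5 lower with and without headers 1 to 3, beside 63.8% of all genes tested called either way. PCNA, the sliding clamp that holds the polymerases on DNA, stood at 142.3 to 164.1 RPKM in HPB-ALL with a median of 153.1, at 235.3, 234.2 and 233.0 in KOPTK1 headers 1 to 3, and at 294.5, 293.9 and 301.2 in headers 4 to 6. The lines did not overlap, and headers 1 to 3 lay between HPB-ALL and headers 4 to 6. PCNA (ENSG00000132646.10, chr20:5114953-5126626, minus strand) was 1.73-fold higher in KOPTK1 (log2 0.79 ± 0.07 SE, adjusted p = 9.6e-07 in edgeR) and differed by 0.93 ± 0.04 without headers 1 to 3. The table has rows for 3 PCNA pseudogenes. RFC1, the large subunit of the loader, was also higher (0.20 ± 0.03), whereas its 4 small subunits RFC2, RFC3, RFC4 and RFC5 were lower, with log2 differences of -0.35, -0.18, -0.14 and -0.47. Without headers 1 to 3 RFC1 was at 0.21 and the 4 small subunits at -0.50, -0.30, -0.20 and -0.67. The ratio of RFC1 to RFC5 was 0.775 to 0.860 in HPB-ALL and 1.07 to 1.53 in KOPTK1. CHTF18, which replaces RFC1 in an alternative loader, was lower, at log2 -0.18 (adjusted p = 0.029 in edgeR, 0.058 without HPB-ALL header 8) and -0.14 without headers 1 to 3, and the KOPTK1 library headed 3 stood at 22.5 RPKM against 28.8 to 30.8 in the others.

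Of the 12 helicase genes, 5 were higher and 5 lower in KOPTK1, and 4 and 5 without headers 1 to 3. MCM4, a subunit of the ring-shaped MCM2 to MCM7 motor, stood at 92.5 to 97.1 RPKM in HPB-ALL with a median of 96.0, at 123.3, 120.7 and 124.5 in headers 1 to 3, and at 138.3, 141.4 and 143.0 in headers 4 to 6. It was higher in KOPTK1 by 0.47 ± 0.04 (SE, adjusted p = 9.8e-07 in edgeR), and by 0.54 ± 0.02 without headers 1 to 3, with no overlap between the lines. MCM7 was higher as well (0.29 ± 0.04, and 0.34 without headers 1 to 3). MCM3, of the same ring, was lower, at log2 -0.31 ± 0.06 (adjusted p = 5.2e-04 in edgeR) and -0.48 ± 0.03 without headers 1 to 3. It stood at 149.8 to 162.6 RPKM in HPB-ALL with a median of 155.8 and at 112.4 to 141.5 in KOPTK1 with a median of 125.5. MCM2 was lower, at log2 -0.13 (-0.21 without headers 1 to 3), and MCM5 was not called (0.03). MCM6 was called higher by 0.11 (adjusted p = 0.040 in edgeR) but not without headers 1 to 3 (adjusted p = 0.28) or with scaling by total counts (0.054). Its level was 56.1, 56.2 and 56.02 RPKM in HPB-ALL headers 7 to 9, 65.2, 62.9 and 65.0 in headers 10 to 12 and 61.8 to 67.2 in KOPTK1, so HPB-ALL headers 10 to 12 lay within the KOPTK1 range. The ratio of MCM4 to MCM3 within a library was 0.594 to 0.643 in HPB-ALL, 0.880 to 0.897 in headers 1 to 3 and 1.22 to 1.26 in headers 4 to 6.

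GINS, a complex of GINS1 to GINS4 that joins CDC45 and MCM2 to MCM7 in the active helicase, held called genes in both directions. GINS4 stood at 10.5 to 11.6 RPKM in HPB-ALL with a median of 11.1, at 13.6, 12.4 and 13.4 in headers 1 to 3, and at 15.1, 14.3 and 14.1 in headers 4 to 6. It was higher in KOPTK1 by 0.32 ± 0.04 (SE, adjusted p = 3.6e-05 in edgeR), and by 0.36 without headers 1 to 3, without overlap. GINS3 was lower, at log2 -0.23 ± 0.04 (-0.34 without headers 1 to 3), and GINS2 was not called. GINS1 was called higher by 0.10 (adjusted p = 0.025 in edgeR, 0.057 with median-of-ratios scaling) and by 0.12 without headers 1 to 3. The GINS1 call was lost without headers 4 to 6 (adjusted p = 0.27 in edgeR). GINS4 and GINS3 share 23.6% and 16.5% of their exon bases with other genes. CDC45 was lower, at log2 -0.22 ± 0.05, and MCM10, which helps start unwinding, was at -0.18 ± 0.05. Without headers 1 to 3 they were at -0.32 and -0.29, and the MCM10 call was lost without headers 4 to 6 (adjusted p = 0.064).

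Of the 7 licensing and origin firing genes, 4 were lower in KOPTK1, 0 were higher and 3 were not called, with and without headers 1 to 3, beside 30.6% of all genes tested called lower. CDC7, the kinase that phosphorylates MCM, was lower, at log2 -0.32 ± 0.05 (adjusted p = 1.1e-04 in edgeR) and -0.45 ± 0.04 without headers 1 to 3, while its activator DBF4 was not called (-0.03). Their ratio was 1.65 to 1.78 in HPB-ALL and 1.21 to 1.51 in KOPTK1. ORC6, ORC2 and ORC1 of the origin recognition complex were lower, with log2 differences of -0.26, -0.14 and -0.08, and of -0.33, -0.17 and -0.13 without headers 1 to 3. The ORC1 call (adjusted p = 0.036 in edgeR) was lost without headers 4 to 6 (0.17). CDC6 (0.06) and CDT1 (-0.01), the loaders of MCM, were not called.

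**Figure D4:**
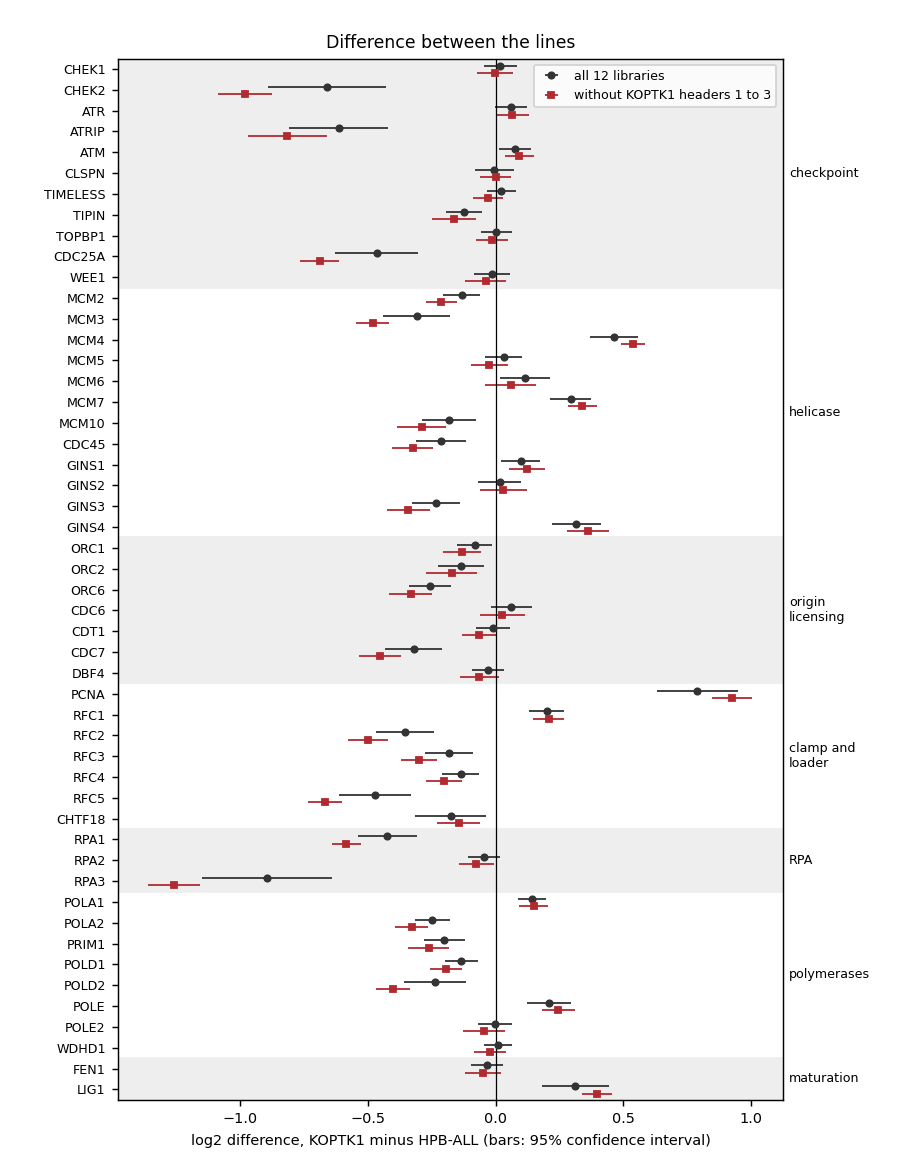
Log2 difference, KOPTK1 minus HPB-ALL, of each of the 50 genes with its 95% confidence interval, from all 12 libraries (circles) and without the KOPTK1 libraries headed 1 to 3 (squares). RPA3 moves from -0.89 to -1.26 and PCNA from 0.79 to 0.93, and 33 of the 34 genes called the same way in both fits lie farther from 0 in the second, as do 95.2% of all such genes.

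Of the 8 polymerase genes, 2 were higher, 4 were lower and 2 were not called, with and without headers 1 to 3. POLA1, the catalytic subunit of the polymerase that makes primers, was higher by 0.14 ± 0.03 (SE, adjusted p = 2.8e-04 in edgeR), whereas its partners POLA2 and PRIM1 were lower, at log2 -0.25 ± 0.03 and -0.20 ± 0.04. Without headers 1 to 3 POLA1 was at 0.15, POLA2 at -0.33 and PRIM1 at -0.26. POLA1 stood at 27.7 to 28.7 RPKM in HPB-ALL and 29.8 to 32.0 in KOPTK1, and POLA2 at 33.8 to 35.4 and 27.2 to 30.2. The ratio of POLA1 to POLA2 was 0.795 to 0.849 in HPB-ALL and 0.987 to 1.17 in KOPTK1. POLE, the leading-strand polymerase, was higher by 0.21 ± 0.04 (0.25 without headers 1 to 3), and its subunit POLE2 was not called (-0.0038). POLD1 and POLD2 of the lagging-strand polymerase were lower, at log2 -0.13 and -0.24, and at -0.19 and -0.40 without headers 1 to 3. WDHD1, which links polymerase alpha to the helicase, was not called (0.0089). Of the 2 genes that finish Okazaki fragments, LIG1, the ligase, was higher by 0.31 ± 0.06 (adjusted p = 5.0e-04 in edgeR), and by 0.40 without headers 1 to 3, although KOPTK1 header 3, at 36.5 RPKM, lay within the HPB-ALL range of 35.3 to 37.5. FEN1, the flap nuclease, was not called (-0.03).

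**Figure D5:**
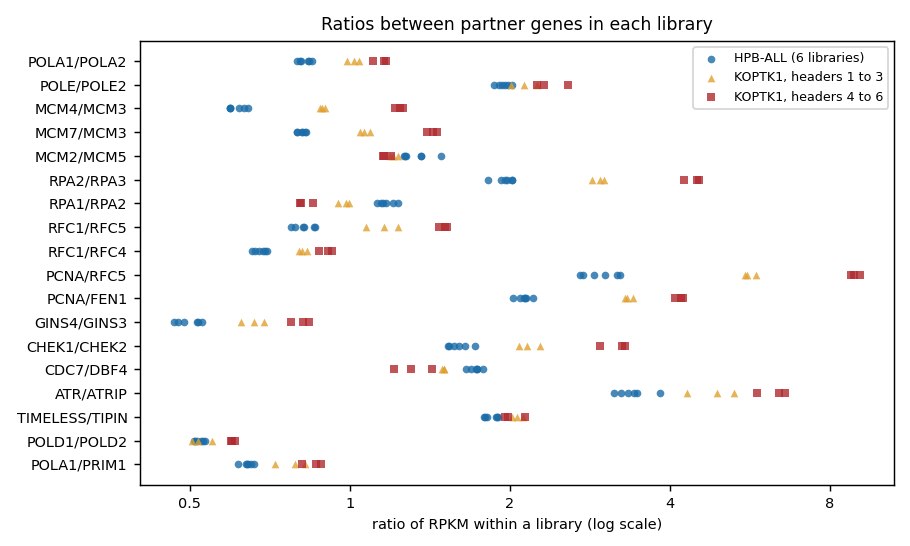
Ratio of RPKM between partner genes within each library, on a log scale, with 1 point per library. Circles are HPB-ALL, triangles KOPTK1 headers 1 to 3 and squares headers 4 to 6; the 18 pairs were chosen after their values were seen, so the number that overlap is not read, and MCM4/MCM3 runs from 0.594 to 0.643 in HPB-ALL and from 1.22 to 1.26 in headers 4 to 6.

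The KOPTK1 libraries headed 1 to 3 lay between every HPB-ALL library and every library headed 4 to 6 for 20 of the 50 genes, beside 32.3% of all genes tested. All 20 were among the 35 called, and they included RPA3, CHEK2, ATRIP, CDC25A, PCNA, MCM3, MCM4 and RFC5. This position itself requires that the lines do not overlap, so the calls add little to it. Of the 34 genes called the same way in both fits, 33 had a larger difference without headers 1 to 3, and the exception was CHTF18. The same held for 95.2% of all genes called the same way in both fits, and the median absolute difference of all genes tested went from 0.35 to 0.48.

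Further genes of the same processes were taken from lists of named factors. Of 26 other replication genes, 11 were higher in KOPTK1 (42.3%, beside 33.2% of all genes tested), 8 were lower (30.8%, beside 30.6%) and 7 were not called; without headers 1 to 3 the counts were 11 and 9. The largest differences were those of ORC3, an origin recognition subunit, at -0.66 (-0.91 without headers 1 to 3), and POLE4, an accessory subunit of POLE, at 0.53 (0.70). The lines overlapped for POLE4, as KOPTK1 header 2, at 6.53 RPKM, lay within the HPB-ALL range of 5.39 to 7.61. Of 19 other checkpoint and S-phase cyclin genes, 10 were higher (52.6%) and 6 were lower (31.6%), with the same counts without headers 1 to 3. CDKN1A, the p21 inhibitor of cyclin-dependent kinases that also binds PCNA, differed most. It stood at 1.09 to 1.83 RPKM in HPB-ALL, at 8.92, 8.80 and 9.90 in KOPTK1 headers 1 to 3, and at 15.6, 14.5 and 14.5 in headers 4 to 6 (log2 3.05 ± 0.20, adjusted p = 4.2e-08 in edgeR). The difference was 3.34 ± 0.11 without headers 1 to 3. HUS1 of the checkpoint clamp was higher by 0.76 (0.90 without headers 1 to 3) and MDC1, a damage mediator, lower, at log2 -0.72 (-0.997). Of 10 genes of the E2F system, 6 were higher (60.0%) and 2 lower (20.0%). E2F3 lost its call without headers 1 to 3 (adjusted p = 0.058), which left 5 and 2. RBL1 (0.87, and 1.04 without headers 1 to 3) and E2F1 (0.69 and 0.80) had the largest differences, while the proliferation marker MKI67 was not called (0.02, 95% interval -0.04 to 0.09).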

How the data were processed

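The 12 samples, 3 for each line and shRNA, were grouped by cell line from their labels. The authors deposited 1 table per line with the summed exon length and estimated counts for 6 libraries; 83.8% of the counts were whole to within 0.001, and the rest were fractional although the tables are named for RPKM. Per the labels the upstream tools were Trimmomatic 0.36, STAR 2.5.4b, Picard 2.18.7, featureCounts 1.6.2 and edgeR 3.22.3 on hg38, whereas the study's methods name another build and aligner. The strand setting of the counting is not given in the sources used here. The tables also hold the authors' fold change, log CPM, F, p and FDR, which were not used.

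Counts were rounded and fitted with edgeR 4.0.16 in R 4.3.3 (filterByExpr, TMM, quasi-likelihood test, Benjamini-Hochberg over 27834 genes). Standard errors were taken as the log2 difference over the root of F. RPKM used unrounded counts and TMM-scaled library sizes, a scale taken after TPM values had been seen so that levels and differences share it. The 18 gene pairs whose ratios are given were also chosen after their values were seen. Symbols were matched to 95.8% of identifiers. Summaries used Python 3.11.15. The genes given in every library were CHEK1, the 3 genes with the largest called difference each way and the most and least abundant; other genes are given by role, and CD79A, MCM3, LIG1, POLA1 and POLA2 were chosen after their values were seen. The members and lists were chosen with earlier results of these data known. On simulated counts for KOPTK1 against HPB-ALL (27834 genes), the fit found 76% of 100 genes given a log2 difference of 0.5 and 95% of 100 given 1, and 3.93% of its calls were false. The simulation gave every gene the same spread between libraries, below the common value of the data (biological coefficient of variation 0.119). It changed only these genes and held no split between KOPTK1 headers, so its rates are not those of the data. Alternatives were median-of-ratios scaling, other filters, DESeq2 1.42.0, a 1.5-fold minimum and leaving out each library. The planned comparison of SHQ1 shRNA with control could not be run, because the headers match no sample.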

Additional observations from a re-analysis of the deposited data

Results flagged for a closer look

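Among 102 sets of 6 libraries (the 50 genes and SHQ1 in each line), 5 had 1 library far from the other 5 by Dixon's ratio, about as many as 1 in 20 would give. In KOPTK1 header 3, CHTF18 stood at 22.5 RPKM against 28.8 to 30.8 in the others, and CLSPN at 45.6 against 49.8 to 52.3. In KOPTK1 header 5, GINS2 stood at 26.7 RPKM against 23.6 to 24.6, and DBF4 at 21.0 against 21.6 to 21.9. In HPB-ALL header 8, RPA1 stood at 53.7 RPKM against 51.5 to 52.1.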

How the results depend on the processing

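The called counts of all genes (9236 higher and 8525 lower in KOPTK1) were 5371 and 5396 with a mean TPM of at least 10, where 15088 genes were tested, and 4900 and 3196 at 1.5-fold or more. The counts of replication genes fell from 11 and 24 to 1 and 3 at 1.5-fold or more. Leaving out each library gave 8690 to 9374 higher and 8096 to 8971 lower genes, and 8 to 11 and 22 to 24 replication genes. Over all alternatives the 50 genes and SHQ1 gave 969 values. Direction and call stayed as reported in 875 of them, the call was lost in 44 (6 genes) and gained in 4. ATM, MCM6 and GINS1 lost the call with median-of-ratios scaling, no filter and DESeq2, MCM6 also with scaling by total counts (adjusted p = 0.054), and ORC1 and CHTF18 with a mean TPM of at least 10; the cause was not tested. Calls with an adjusted p near 0.05 were also lost when 1 library was left out: ATM without HPB-ALL headers 7 to 11 or KOPTK1 headers 3, 5 or 6 (adjusted p up to 0.13), MCM6 without HPB-ALL headers 7 to 9 or KOPTK1 headers 1, 2, 3, 5 or 6 (up to 0.11), ORC1 without HPB-ALL headers 7 or 10 or KOPTK1 headers 2, 4, 5 or 6 (up to 0.069), GINS1 without HPB-ALL headers 7 or 9 or KOPTK1 header 6 (up to 0.085) and CHTF18 without HPB-ALL headers 8 or 10 (up to 0.058). The sign turned for 12 genes, none of them called. With median-of-ratios scaling CHEK1 was at -0.00084, TOPBP1 at -0.016, GINS2 at -0.0038 and WDHD1 at -0.010. With DESeq2 they were at -0.0010, -0.016, -0.0045 and -0.010. With no filter they were at -0.044, -0.059, -0.047 and -0.054, with ATR at -0.0019, TIMELESS at -0.040, MCM5 at -0.031 and CDC6 at -0.0012. With a mean TPM of at least 10 CLSPN was at 0.018, WEE1 at 0.0098, CDT1 at 0.013 and POLE2 at 0.020. Without KOPTK1 headers 1 to 3 CHEK1 was at -0.0018, CLSPN at 1.15e-04, TIMELESS at -0.031, TOPBP1 at -0.014, MCM5 at -0.024 and WDHD1 at -0.021. Without headers 4 to 6 TOPBP1 was at -0.0061, GINS2 at -0.025, CDT1 at 0.014 and POLE2 at 0.011. Over single libraries left out the ranges were -0.019 to 0.014 for CLSPN, -0.011 to 0.017 for TOPBP1, -0.034 to 9.07e-04 for WEE1, -0.0086 to 0.030 for GINS2, -0.020 to 0.0080 for POLE2 and -0.0049 to 0.015 for WDHD1. The fits without headers 1 to 3 or 4 to 6 and the scaling by total counts were added once values had been seen. The pseudocount alternative was not run, as the values are counts. No paired analysis was possible because the headers of the libraries match no replicate label.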
